A study of Mus musculus with 48 samples.

Results

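The 10 genes *Clec4f*, *Timd4*, *Cd5l*, *Marco*, *Vsig4*, *Folr2*, *Cd163*, *Csf1r*, *Cd68* and *C1qa* mark the resident macrophages of the mouse liver, and their RNA was measured in the liver of *WT*, *Pparα hep-/-* and *Pparα-/-* mice fed a CTRL diet or a HFD. They were taken as every probe on the arrays that carries one of these gene names, which gave 14 of 56605 probes, for 10 of 37074 gene names. After the filter on dim signals 13 of the 14 probes, covering all 10 genes, were tested, among 33323 probes with 22029 gene names.

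Kupffer cells are macrophages fixed in the sinusoids of the liver, where they clear bacteria, dying cells and worn-out red blood cells from portal blood. The growth factors CSF1 and IL-34 keep them alive through the receptor CSF1R. In fatty liver, resident Kupffer cells can be lost and their niche refilled by monocyte-derived macrophages, which lack TIM4 at first. Among the markers, *Clec4f* is largely restricted to Kupffer cells and *Timd4* to long-lived resident macrophages, *Vsig4*, *Marco*, *Cd5l*, *Folr2* and *Cd163* are shared with some other tissue macrophages, and *Csf1r*, *Cd68* and *C1qa* are expressed by macrophages in general.

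All 48 mice were C57Bl6J males, 20 weeks old, and 8 mice made up each of the 6 groups of genotype and diet. *Pparα-/-* mice lack the fatty acid sensor PPARα in every cell, Kupffer cells included. *Pparα hep-/-* mice carry floxed *Pparα* alleles and a Cre recombinase driven by the albumin promoter, so the deletion is in hepatocytes and their macrophages keep the gene. *WT* mice came from a commercial breeder whereas both mutant lines were bred in the study's own facility, so origin and genotype cannot be told apart. The HFD held 60% fat and was given for 12 weeks according to the labels, while the study's text gives a shorter period, and all mice were housed at thermoneutrality. Labels name the hepatocyte-specific mice PPARaLKO and the whole-body mice PPARaKO.

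Total liver RNA of each mouse was hybridised to 1 array, and values are log2 signals after quantile normalization, so levels of 2 different probes are not set against each other. Precision is limited by the number of mice, and detection by the signal over background, with median spot intensities of 56 to 91 per array over a local background of 20 to 36. In whole liver, fewer macrophages and less RNA per macrophage cannot be told apart. The brighter probe of *Ppara* ranged on the HFD from 14.65 to 15.24 in *WT*, from 14.11 to 14.54 in *Pparα hep-/-* and from 13.83 to 14.27 in *Pparα-/-* mice, so signal remained in both mutants but neither overlapped *WT* on that diet. On the CTRL diet the ranges of this probe overlapped, at 14.03 to 15.07 in *WT*, 13.26 to 14.28 in *Pparα hep-/-* and 13.53 to 14.09 in *Pparα-/-* mice. On the other *Ppara* probe *Pparα-/-* mice lay below *WT* on the CTRL diet without overlap, at 11.36 to 11.87 against 12.36 to 13.24, while *Pparα hep-/-* mice, at 11.77 to 12.95, overlapped *WT*. The arrays had weights of 0.189 to 2.53 in the fit, and 5 weighed under 0.5, namely *Pparα hep-/-* CTRL mouse 1, *WT* CTRL mouse 6, *WT* HFD mice 2 and 6 and *Pparα-/-* CTRL mouse 3. In the first of these *Clec4f*, *Timd4*, *Marco*, *Folr2* and *Cd163* lay apart below the rest of its group and *Csf1r*, *Cd68* and *C1qa* apart above it. Counts of calls without these 5 arrays are given beside each comparison.

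The probes of 4 members that carry the comparisons below are printed to show which stretch of each transcript was read, with positions in mm9 and with no base marked. The *Clec4f* probe, A_51_P271865, lies at chr6:83595281-83595339 on the minus strand, the *Vsig4* probe, A_51_P128834, at chrX:93443157-93443216 on the minus strand, the *Folr2* probe, A_51_P162671, at chr7:108988771-108988830 on the minus strand, and the *C1qa* probe, A_51_P181451, at chr4:136452409-136452468 on the minus strand. Where these stretches lie in the exons of each gene was not analysed here.
Clec4f: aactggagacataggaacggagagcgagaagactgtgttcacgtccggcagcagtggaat
Vsig4: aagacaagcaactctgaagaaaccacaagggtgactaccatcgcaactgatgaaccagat
Folr2: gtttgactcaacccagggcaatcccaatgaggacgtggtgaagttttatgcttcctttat
C1qa: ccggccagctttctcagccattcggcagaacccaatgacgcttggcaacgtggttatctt

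In the signals of single mice, the 10 genes did not move as 1 block. In *WT* mice the HFD left most group means close together, whereas in *Pparα-/-* mice most genes stood highest on the HFD and *Cd163* stood lowest. *Timd4* separated *Pparα-/-* from *WT* mice on both diets.

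**Figure D1:**
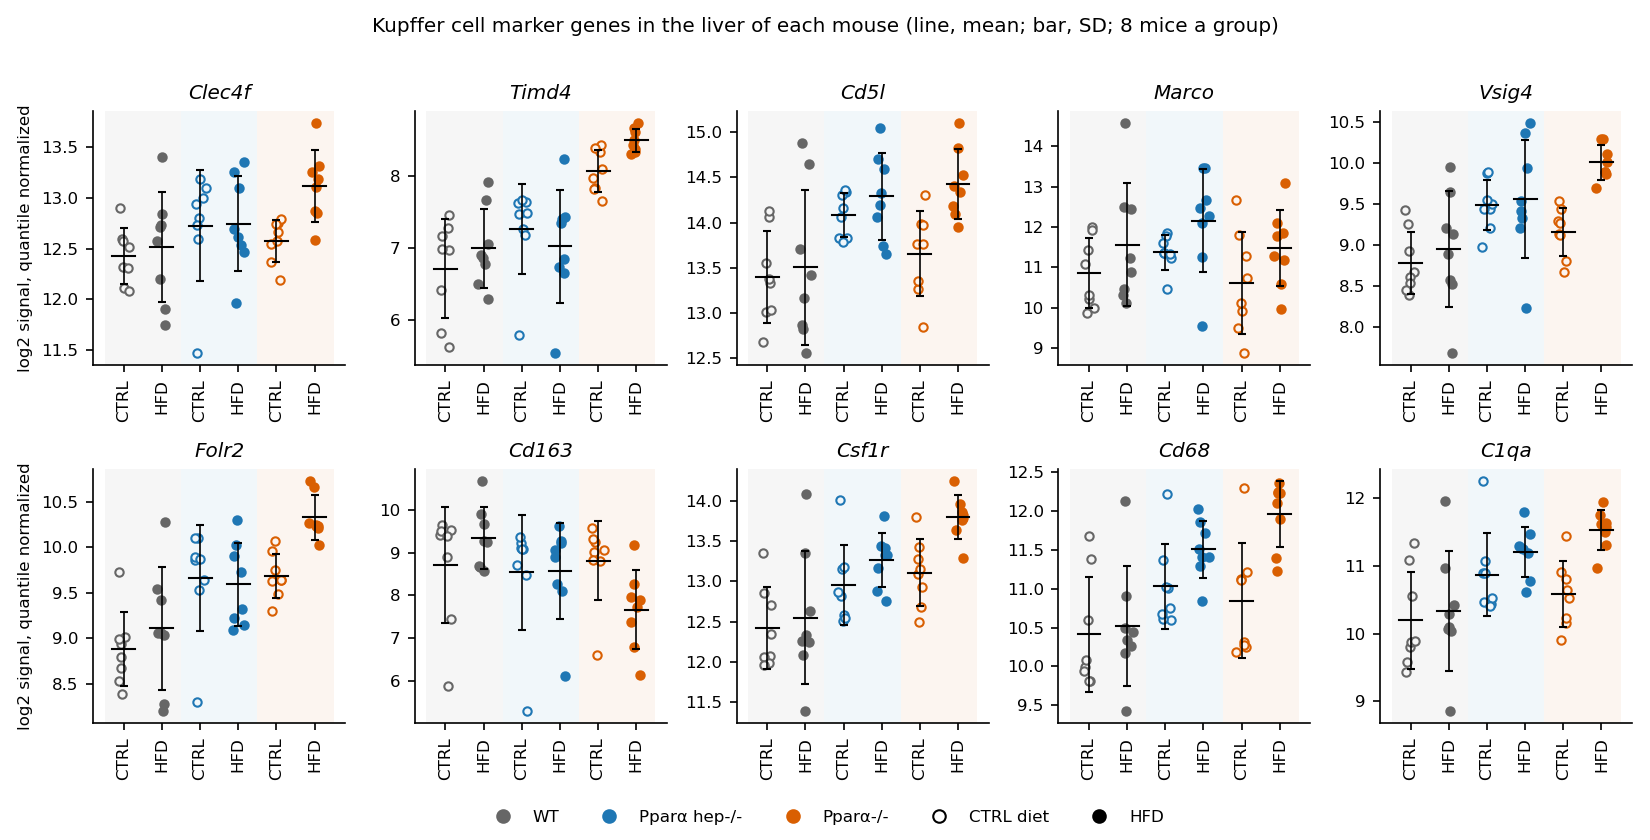
Log2 signal (vertical axes, quantile normalized, own scale for each gene) of the 10 marker genes in 48 mice, by genotype (colour) and diet (open, CTRL; filled, HFD), with the group mean and SD over 8 mice. *Timd4* in *Pparα-/-* HFD mice lay between 8.30 and 8.73, above all *WT* HFD and *Pparα hep-/-* HFD mice, and *Cd163* in the same mice lay between 6.14 and 9.19.

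Below, SE is the standard error of a fitted log2 change and every adjusted p is limma's, over all tested probes. The first question was how the HFD changed the markers in each genotype. In *WT* mice 0 of the 10 genes passed an adjusted p of 0.05 in limma, where 18.7% of all tested probes did, and 0 had an unadjusted p below that value. Their fitted changes ran from -0.06 for *Clec4f* to 0.64 for *Marco* on the log2 scale, and 95% confidence intervals for *Clec4f* (-0.45 to 0.33), *Vsig4* (-0.48 to 0.48) and *Csf1r* (-0.38 to 0.47) leave room for changes in either direction. In *Pparα hep-/-* mice 2 genes rose, *Cd68* and *C1qa*, and 0 fell, against 20.2% of probes called, 9.46% higher and 10.8% lower. In *Pparα-/-* mice 7 genes rose, namely *Clec4f*, *Cd5l*, *Vsig4*, *Folr2*, *Csf1r*, *Cd68* and *C1qa*, and 1 gene, *Cd163*, fell, against 24.8% of probes called, 12.2% higher and 12.6% lower. Over the 10 genes the median change was 0.07 for *WT*, 0.18 for the *Pparα hep-/-* genotype and 0.71 for *Pparα-/-* mice, beside -0.01, -0.01 and -0.02 over all tested probes. Without the 5 arrays of low weight the counts were 0, 3 and 8, with 18.2%, 22.6% and 24.7% of all probes called. Without array weights they were 0, 0 and 4, with *Cd5l*, *Vsig4*, *Cd68* and *C1qa* the 4 that remained in *Pparα-/-* mice, and the shares over all probes were 12.6%, 3.81% and 12.1%.

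The second question was how loss of PPARα changed the markers on each diet. On the CTRL diet 4 genes exceeded *WT* in the *Pparα hep-/-* group, *Cd5l*, *Vsig4*, *Folr2* and *C1qa*, against 24.7% of probes called, 11.3% higher. There 8 of the 10 had an unadjusted p under 0.05, and *Csf1r* (0.53, adjusted p = 0.0533) and *Cd68* (0.61, adjusted p = 0.0628) fell just short. In *Pparα-/-* mice 3 genes were higher than in *WT*, *Timd4*, *Folr2* and *Csf1r*, against 34.2%, 15.6% higher. Here 5 had an unadjusted p under 0.05, and *Cd68* fell just short (0.62, adjusted p = 0.0576). Between the mutants on this diet 0 genes passed in limma, with 2 at an unadjusted p under 0.05 and 25.2% of probes called. On the HFD 6 genes exceeded *WT* in the *Pparα hep-/-* group, the 4 named for the CTRL diet together with *Csf1r* and *Cd68*, against 26.7%, 13.3% higher. In *Pparα-/-* HFD mice 8 genes were higher than in *WT*, all but *Marco* and *Cd163*, and *Cd163* was lower, against 45.7% of probes called, 21.8% higher and 24% lower. Compared with *Pparα hep-/-* HFD mice, *Timd4*, *Folr2* and *Csf1r* were higher and *Cd163* lower in *Pparα-/-* HFD mice, against 30.6%, 15.2% higher and 15.4% lower. Groups without any overlap were found for 0 members in the diet comparisons of *WT* and *Pparα hep-/-* mice (0.603% and 0.591% of probes), between *Pparα hep-/-* and *WT* on either diet (1.31% and 1.44%) and between the mutants on the CTRL diet (4.43%). The comparisons share groups of mice, so their counts are not independent. Without the 5 arrays of low weight the counts were 6, 4 and 0 on the CTRL diet and 6, 9 and 5 on the HFD, in the order given, with 24.9%, 34.4% and 25.4% and then 29.4%, 46.6% and 30.4% of all probes called. Without array weights they were 2, 3 and 1 and then 2, 9 and 2, with 16.6%, 31% and 19.2% and then 9.74%, 31.7% and 18.1%.

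Whether the diet response itself differed between genotypes was tested with interaction terms. Between *Pparα-/-* and *WT* mice 1 gene, *Cd68*, passed, with 14.3% of probes called, 6.93% higher and 7.42% lower, and 8 of the 10 had an unadjusted p under 0.05. Between *Pparα-/-* and *Pparα hep-/-* mice 1 gene, *Folr2*, passed, against 3.42%, 2.12% higher. Between *Pparα hep-/-* and *WT* mice 0 genes passed in limma, 0 had an unadjusted p under 0.05, and 10.4% of probes were called. A gene that passed in *Pparα-/-* but not in *WT* mice, other than *Cd68*, was therefore not shown to respond differently. Without the 5 arrays of low weight 5 genes passed between *Pparα-/-* and *WT* mice, with 15.7% of probes called, and without array weights 0 did, with 5.22%. Between *Pparα-/-* and *Pparα hep-/-* mice the counts in these 2 settings were 1 and 0, with 3.52% and 0.33% of probes. Between *Pparα hep-/-* and *WT* mice they were 0 and 0, with 12.8% and 0.894%.

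**Figure D2:**
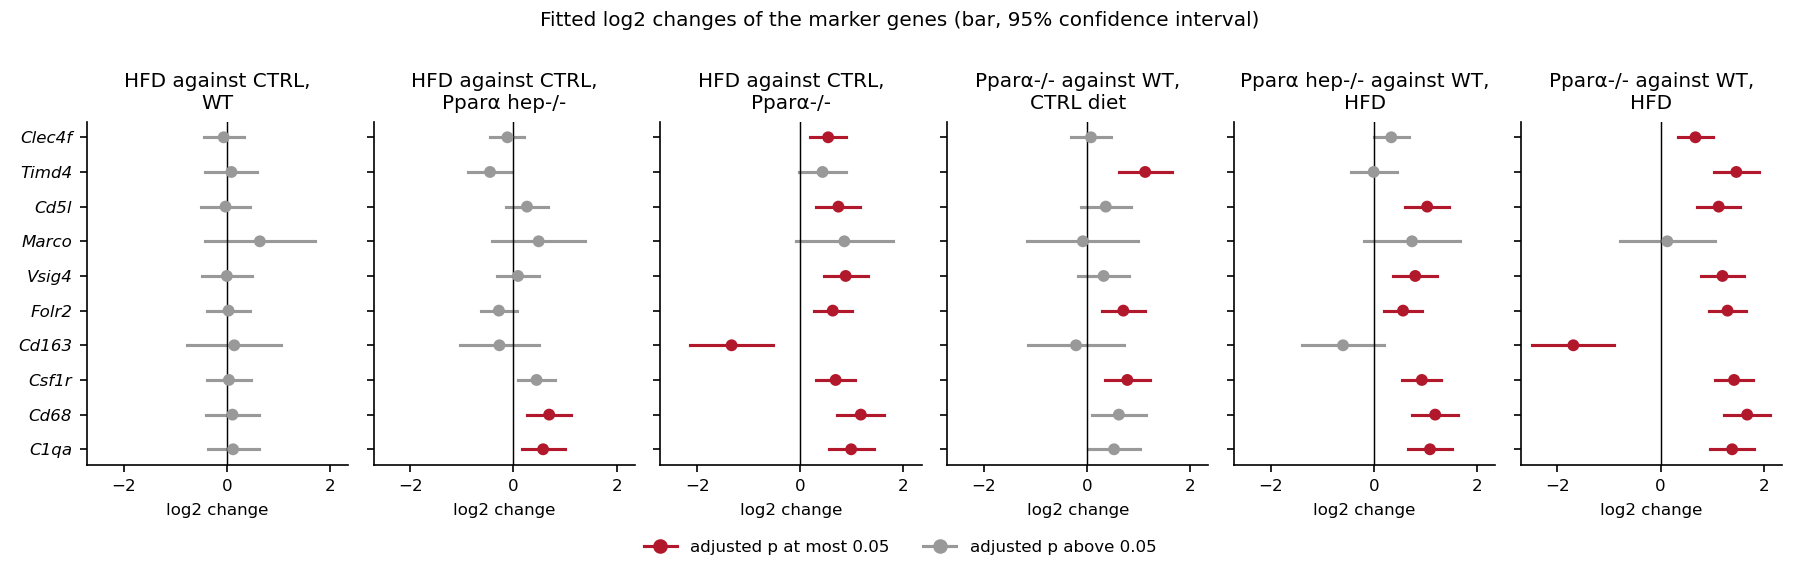
Fitted log2 change (horizontal axis) of the 10 genes in 6 comparisons, with 95% confidence intervals; red marks an adjusted p of at most 0.05 over all tested probes. In *WT* mice every interval of the diet comparison crosses 0, and in *Pparα-/-* against *WT* mice on the HFD 9 of 10 do not.

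*Clec4f* encodes a C-type lectin receptor of Kupffer cells that binds galactose-rich glycans. Its lowest, median and highest log2 signals were 12.09, 12.42 and 12.90 in *WT* CTRL mice and 11.75, 12.64 and 13.40 in *WT* HFD mice. They were 11.47, 12.87 and 13.19 in *Pparα hep-/-* CTRL mice and 11.96, 12.65 and 13.35 in *Pparα hep-/-* HFD mice. They were 12.19, 12.62 and 12.79 in *Pparα-/-* CTRL mice and 12.59, 13.15 and 13.74 in *Pparα-/-* HFD mice. The *Pparα-/-* HFD group was the highest, all 8 of its mice lay above the *Pparα-/-* CTRL mean, and all group pairs overlapped. The HFD raised *Clec4f* by 0.54 in *Pparα-/-* mice (SE 0.17, limma adjusted p = 0.0168), with 0.81 in wash batch 1 and 0.35 in wash batch 2. *Pparα-/-* HFD mice exceeded *WT* HFD mice by 0.68 (SE 0.17, limma adjusted p = 0.000932). The diet change did not pass without *Pparα-/-* CTRL mouse 7 (adjusted p = 0.0616), without array weights (adjusted p = 0.0748) or from the scanner's processed signal scaled to each array's 75th percentile (0.43, adjusted p = 0.0662). For *Pparα hep-/-* mice the diet change was -0.12 (95% interval -0.45 to 0.21, adjusted p = 0.653).

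*Timd4* encodes TIM4, a phosphatidylserine receptor for apoptotic cells and a marker of long-lived resident macrophages. Its lowest, median and highest signals were 5.62, 6.98 and 7.45 in *WT* CTRL mice and 6.28, 6.87 and 7.91 in *WT* HFD mice. They were 5.79, 7.47 and 7.67 in *Pparα hep-/-* CTRL mice and 5.53, 7.10 and 8.23 in *Pparα hep-/-* HFD mice. They were 7.65, 8.03 and 8.43 in *Pparα-/-* CTRL mice and 8.30, 8.46 and 8.73 in *Pparα-/-* HFD mice. The probe was well above background on 46 of the 48 arrays. *Pparα-/-* mice lay above all *WT* mice of the same diet and, on the HFD, above all *Pparα hep-/-* mice, while on the CTRL diet the mutants met at 7.65 and 7.67. Relative to *WT*, *Timd4* was higher in *Pparα-/-* mice by 1.13 on the CTRL diet (SE 0.25, limma adjusted p = 0.000442) and by 1.47 on the HFD (SE 0.22, limma adjusted p = 3.56e-07), where 6.15% and 6.93% of all probes also had groups without overlap. On the HFD it was 1.47 higher in *Pparα-/-* than in *Pparα hep-/-* mice (SE 0.20, limma adjusted p = 1.53e-07), with 1.70 in wash batch 1 and 1.25 in wash batch 2, where 6.55% of probes had groups without overlap. Between *Pparα hep-/-* and *WT* mice no difference passed, at 0.54 on the CTRL diet (adjusted p = 0.0967) and -0.002 on the HFD (95% interval -0.45 to 0.44). Diet changes of *Timd4* were 0.43 for *Pparα-/-* (adjusted p = 0.153) and -0.46 for *Pparα hep-/-* mice (adjusted p = 0.124). Neither passed, though the latter did without *Pparα hep-/-* HFD mouse 2 (adjusted p = 0.0369). By group mean the order was *Pparα-/-* HFD, *Pparα-/-* CTRL, *Pparα hep-/-* CTRL, *Pparα hep-/-* HFD, *WT* HFD and *WT* CTRL, with means of 8.49, 8.06, 7.26, 7.02, 6.99 and 6.71. No step between neighbours passed, the one between the mutants on the CTRL diet being 0.58 (adjusted p = 0.0535). That step did pass without array weights (0.81, adjusted p = 0.0302) and with the authors' log2 values (0.61, adjusted p = 0.0457). It also passed with the normexp background correction (0.50, adjusted p = 0.0312), a stricter filter (0.59, adjusted p = 0.0496) and a term for the slide (0.61, adjusted p = 0.0448).

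*Marco* encodes a scavenger receptor for bacteria and particles, and its signal spread more than that of any other member, from 8.87 to 14.58 over the 48 mice, a 52.2-fold range. Group medians ran from 10.43 in *Pparα-/-* CTRL to 12.37 in *Pparα hep-/-* HFD mice, and every group overlapped every other. Fitted diet changes were 0.64 (*WT*), 0.49 (*Pparα hep-/-*) and 0.85 (*Pparα-/-*), with standard errors of 0.53, 0.45 and 0.47. None of the 12 contrasts of *Marco* passed in the full fit, and the interval of the diet change in *Pparα-/-* mice was -0.09 to 1.80. Within wash batch 2 alone *Pparα-/-* lay below *Pparα hep-/-* mice on the CTRL diet (-1.59, adjusted p = 0.0424).

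*Cd163* encodes the receptor that takes up haemoglobin bound to haptoglobin, and it was the 1 member that fell. Its lowest, median and highest signals were 5.88, 9.40 and 9.64 in *WT* CTRL mice and 8.58, 9.26 and 10.68 in *WT* HFD mice. They were 5.29, 9.09 and 9.36 in *Pparα hep-/-* CTRL mice and 6.13, 8.98 and 9.61 in *Pparα hep-/-* HFD mice. They were 6.60, 9.05 and 9.57 in *Pparα-/-* CTRL mice and 6.14, 7.81 and 9.19 in *Pparα-/-* HFD mice. *Pparα-/-* HFD mice had the lowest median, but the lowest mouse of each of 4 other groups, all but *WT* HFD, lay below that median. The HFD lowered *Cd163* by 1.33 in *Pparα-/-* mice, 2.52-fold (SE 0.40, limma adjusted p = 0.0122), with -1.24 in wash batch 1 and -1.32 in wash batch 2. Relative to *WT* HFD mice the difference in *Pparα-/-* HFD mice was -1.69 (SE 0.39, limma adjusted p = 0.000454), with all 8 mice below the *WT* mean, and relative to *Pparα hep-/-* HFD mice it was -1.09 (SE 0.37, limma adjusted p = 0.0205), with -0.39 in wash batch 1 and -1.74 in wash batch 2. The latter did not pass without *Pparα-/-* HFD mouse 8 (adjusted p = 0.0752) or without *Pparα hep-/-* HFD mouse 6 or 7, and neither it nor the diet change in *Pparα-/-* mice passed without array weights (adjusted p = 0.258 and 0.149). The interaction with *WT* was -1.48 (adjusted p = 0.0909). A second probe of *Cd163*, at chr6:124270436-124270495 of mm9, was well above background on 9 of 48 arrays and was not tested.

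*Cd5l* encodes a secreted scavenger-family protein that supports macrophage survival. Its signal ran from 12.55 to 15.10 over all mice, with group medians of 13.35 and 13.29 in *WT*, 14.11 and 14.26 in *Pparα hep-/-* and 13.76 and 14.37 in *Pparα-/-* mice on the CTRL diet and the HFD. All groups overlapped, and *WT* HFD mice spanned nearly the whole range. *Pparα hep-/-* mice exceeded *WT* by 0.75 on the CTRL diet (SE 0.23, limma adjusted p = 0.0138) and by 1.04 on the HFD (SE 0.21, limma adjusted p = 0.000244). In *Pparα-/-* mice the HFD raised it by 0.74 (SE 0.21, limma adjusted p = 0.00848), with 1.13 in wash batch 1 and 0.45 in wash batch 2. Without array weights the difference of *Pparα hep-/-* from *WT* on the CTRL diet did not pass (adjusted p = 0.0539).

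*Vsig4* encodes the complement receptor CRIg, with which Kupffer cells capture C3b-coated bacteria. Its lowest, median and highest signals were 8.39, 8.64 and 9.42 in *WT* CTRL mice and 7.68, 9.02 and 9.95 in *WT* HFD mice. They were 8.98, 9.47 and 9.90 in *Pparα hep-/-* CTRL mice and 8.23, 9.47 and 10.49 in *Pparα hep-/-* HFD mice. They were 8.68, 9.20 and 9.54 in *Pparα-/-* CTRL mice and 9.69, 9.96 and 10.30 in *Pparα-/-* HFD mice. *Pparα-/-* HFD mice did not overlap *Pparα-/-* CTRL mice, which held for 1 of the 10 genes and for 1.44% of all probes, whereas the diets overlapped in the other genotypes. The HFD raised *Vsig4* by 0.88 in *Pparα-/-* mice (SE 0.21, limma adjusted p = 0.00209), with 0.91 in wash batch 1 and 0.89 in wash batch 2. *Pparα hep-/-* mice exceeded *WT* by 0.72 on the CTRL diet (SE 0.23, limma adjusted p = 0.019) and by 0.80 on the HFD (SE 0.21, limma adjusted p = 0.0036), and *Pparα-/-* HFD mice exceeded *WT* HFD mice by 1.20 (SE 0.21, limma adjusted p = 6.61e-06). The difference on the CTRL diet did not pass without *WT* CTRL mouse 1 (adjusted p = 0.0613), and that between *Pparα hep-/-* and *WT* HFD mice did not pass without array weights (adjusted p = 0.0818). The diet response differed from that of *WT* by 0.88 in *Pparα-/-* mice (adjusted p = 0.0566), short of the threshold.

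*C1qa* encodes a chain of C1q, the recognition part of the classical complement pathway, which macrophages secrete. Its lowest, median and highest signals were 9.43, 9.88 and 11.34 in *WT* CTRL mice and 8.85, 10.19 and 11.96 in *WT* HFD mice. They were 10.41, 10.71 and 12.26 in *Pparα hep-/-* CTRL mice and 10.61, 11.26 and 11.80 in *Pparα hep-/-* HFD mice. They were 9.91, 10.59 and 11.44 in *Pparα-/-* CTRL mice and 10.96, 11.60 and 11.94 in *Pparα-/-* HFD mice. The medians of both mutants on the HFD lay above those of the 4 other groups, and *WT* HFD mice ranged widely and overlapped every other group. The HFD raised *C1qa* by 0.99 in *Pparα-/-* mice (SE 0.22, limma adjusted p = 0.000866), with 1.18 in wash batch 1 and 0.83 in wash batch 2. With the hepatocyte deletion it rose by 0.57 (SE 0.21, limma adjusted p = 0.0431), with 0.50 in wash batch 1 and 0.70 in wash batch 2. That change did not pass when any 1 of *Pparα hep-/-* CTRL mice 4, 5, 6 or 7 or HFD mice 1, 2, 5, 6, 7 or 8 was left out, with an adjusted p of up to 0.116, without array weights (0.32, adjusted p = 0.668) or from the authors' own log2 values (0.51, adjusted p = 0.0879). On the CTRL diet *Pparα hep-/-* mice exceeded *WT* by 0.64 (SE 0.24, limma adjusted p = 0.0429), which did not pass without any 1 of *Pparα hep-/-* mice 1, 2, 3 or 8 or *WT* mice 1, 2, 3, 5 or 7, with an adjusted p of up to 0.149. It also did not pass without array weights (adjusted p = 0.102), without a filter (0.104), or with a term for the slide (0.0613) or the replicate number (0.0672). On the HFD the difference from *WT* was 1.09 in *Pparα hep-/-* mice (SE 0.22, limma adjusted p = 0.000174) and 1.39 in *Pparα-/-* mice (SE 0.21, limma adjusted p = 7.06e-07), and the former did not pass without array weights (adjusted p = 0.0515).

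*Folr2* encodes folate receptor beta, found on resident tissue macrophages. Its lowest, median and highest signals were 8.39, 8.87 and 9.73 in *WT* CTRL mice and 8.20, 9.06 and 10.28 in *WT* HFD mice. They were 8.30, 9.87 and 10.101 in *Pparα hep-/-* CTRL mice and 9.09, 9.53 and 10.30 in *Pparα hep-/-* HFD mice. They were 9.30, 9.64 and 10.07 in *Pparα-/-* CTRL mice and 10.03, 10.24 and 10.73 in *Pparα-/-* HFD mice. *Pparα-/-* HFD mice were the highest group, and the highest mouse of every other group except *WT* CTRL reached into their range. The HFD raised *Folr2* by 0.63 in *Pparα-/-* mice (SE 0.18, limma adjusted p = 0.00889), with 0.60 in wash batch 1 and 0.68 in wash batch 2, and changed it by -0.28 in *Pparα hep-/-* mice (SE 0.17, limma adjusted p = 0.256). The 2 responses differed by 0.91 (SE 0.25, limma adjusted p = 0.0312), with 0.87 in wash batch 1 and 0.88 in wash batch 2. This difference did not pass without *Pparα-/-* CTRL mouse 6, 7 or 8, without *Pparα hep-/-* CTRL mouse 8 or without *Pparα hep-/-* HFD mouse 6 (adjusted p of up to 0.107), nor without array weights (adjusted p = 0.419), and the diet change in *Pparα-/-* mice did not pass without array weights either (adjusted p = 0.0552). Both mutants exceeded *WT* on the CTRL diet, by 0.89 in *Pparα hep-/-* (SE 0.20, limma adjusted p = 0.000783) and by 0.70 in *Pparα-/-* mice (SE 0.21, limma adjusted p = 0.00667). On the HFD they did so by 0.57 (SE 0.18, limma adjusted p = 0.016) and 1.30 (SE 0.18, limma adjusted p = 7.06e-08), and the former did not pass without *WT* HFD mouse 3 or 4 or *Pparα hep-/-* HFD mouse 5 (adjusted p of up to 0.0666) or without array weights (adjusted p = 0.188).

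*Csf1r* encodes the receptor for CSF1 and IL-34 on which macrophages depend. On its bright probe, A_55_P2025078 at chr18:61290725-61290784 of mm9, the lowest, median and highest signals were 11.96, 12.21 and 13.35 in *WT* CTRL mice and 11.39, 12.30 and 14.08 in *WT* HFD mice. They were 12.51, 12.85 and 14.01 in *Pparα hep-/-* CTRL mice and 12.76, 13.33 and 13.81 in *Pparα hep-/-* HFD mice. They were 12.50, 13.12 and 13.80 in *Pparα-/-* CTRL mice and 13.29, 13.81 and 14.25 in *Pparα-/-* HFD mice. Medians were lowest in *WT* and highest in *Pparα-/-* HFD mice, and every pair of groups overlapped. The HFD raised this probe by 0.69 in *Pparα-/-* mice (SE 0.19, limma adjusted p = 0.00591), with 0.97 in wash batch 1 and 0.46 in wash batch 2, and not past the threshold without array weights (adjusted p = 0.055). Relative to *WT* it was higher by 0.78 in *Pparα-/-* CTRL (SE 0.21, limma adjusted p = 0.00355), by 0.93 in *Pparα hep-/-* HFD (SE 0.19, limma adjusted p = 0.000194) and by 1.43 in *Pparα-/-* HFD mice (SE 0.18, limma adjusted p = 1.77e-08), and the middle one did not pass without array weights (adjusted p = 0.0623). Between the mutants on the HFD it differed by 0.49 (SE 0.17, limma adjusted p = 0.0254), which did not pass without *Pparα-/-* HFD mouse 4 or *Pparα hep-/-* HFD mouse 3 or 6 (adjusted p of up to 0.0765) or without array weights (adjusted p = 0.116). The dimmer probe, A_55_P2025073 at chr18:61278661-61278720, went the other way. It ranged from 8.00 to 9.14, a 2.2-fold range, and changed by -0.32 with the HFD in *Pparα-/-* mice (adjusted p = 0.00726) and by -0.39 against *WT* HFD mice (adjusted p = 0.000293), while *Pparα-/-* CTRL mice differed from *WT* by 0.009 on it (adjusted p = 0.958). The direction of *Csf1r* thus depends on the probe, and all values given for it elsewhere are those of the bright probe.

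*Cd68* encodes a lysosomal glycoprotein of macrophages, and its 3 tested probes moved together. On the brightest, A_55_P1961943 at chr11:69477775-69477834 of mm9, the lowest, median and highest signals were 9.81, 10.04 and 11.68 in *WT* CTRL mice and 9.42, 10.39 and 12.13 in *WT* HFD mice. They were 10.60, 10.88 and 12.22 in *Pparα hep-/-* CTRL mice and 10.84, 11.46 and 12.02 in *Pparα hep-/-* HFD mice. They were 10.19, 10.71 and 12.30 in *Pparα-/-* CTRL mice and 11.23, 12.17 and 12.36 in *Pparα-/-* HFD mice. Medians rose from *WT* through the mutants on the CTRL diet to *Pparα hep-/-* HFD and then *Pparα-/-* HFD mice, and the highest mouse of each CTRL group reached into the range of *Pparα-/-* HFD mice. The HFD raised *Cd68* by 1.17 in *Pparα-/-* mice (SE 0.23, limma adjusted p = 0.000184), with 1.45 in wash batch 1 and 0.93 in wash batch 2, and by 0.69 in *Pparα hep-/-* mice (SE 0.21, limma adjusted p = 0.0184), with 0.58 in wash batch 1 and 0.79 in wash batch 2. The other 2 probes gave 1.14 and 0.82 in *Pparα-/-* mice and 0.77 and 0.43 in *Pparα hep-/-* mice. The change in *Pparα hep-/-* mice did not pass without *Pparα hep-/-* HFD mouse 5 (adjusted p = 0.0501) or without array weights (adjusted p = 0.459). The response of *Pparα-/-* mice exceeded that of *WT* by 1.06 (SE 0.34, limma adjusted p = 0.0285), with 1.35 in wash batch 1 and 0.77 in wash batch 2. That difference did not pass without *Pparα-/-* CTRL mouse 4 or 7, *WT* CTRL mouse 4 or *WT* HFD mouse 4 (adjusted p of up to 0.0614), without array weights (adjusted p = 0.153) or on probe A_51_P120470 (1.03, adjusted p = 0.0519). On the HFD *Cd68* was 1.19 higher in *Pparα hep-/-* (SE 0.22, limma adjusted p = 8.34e-05) and 1.68 higher in *Pparα-/-* than in *WT* mice (SE 0.22, limma adjusted p = 2.64e-08).

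Mice of 1 group also differed in the balance of the markers. After the group means and the wash batch were taken out, Pearson correlations over the 48 mice were 0.97 between *Csf1r* and *C1qa*, 0.94 between *Cd68* and *C1qa* and 0.87 between *Cd5l* and *Csf1r*. Among *Clec4f*, *Folr2*, *Vsig4* and *Timd4* they ran from 0.62 to 0.91. Between the sets they ran from -0.24 for *Timd4* and *Cd68* to 0.71 for *Cd5l* and *Vsig4*, with 0.15 for *Clec4f* and *Cd68*, and *Cd163* went with *Timd4* (0.78) and against *Cd68* (-0.57). These are descriptions over mice whose markers were read on the same array, and each array counted alike, those of low weight included. In *Pparα hep-/-* CTRL mouse 1 (weight 0.189) *Timd4* was 5.79, *Cd163* 5.29 and *Cd68* 12.22, beside group means of 7.26, 8.54 and 11.03. In *WT* CTRL mouse 6 (weight 0.208) they were 5.62, 5.88 and 11.68, beside 6.71, 8.71 and 10.41. Both mice were thus low for *Timd4* and *Cd163* and high for *Cd68*, and correlations without them were not worked out.

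**Figure D3:**
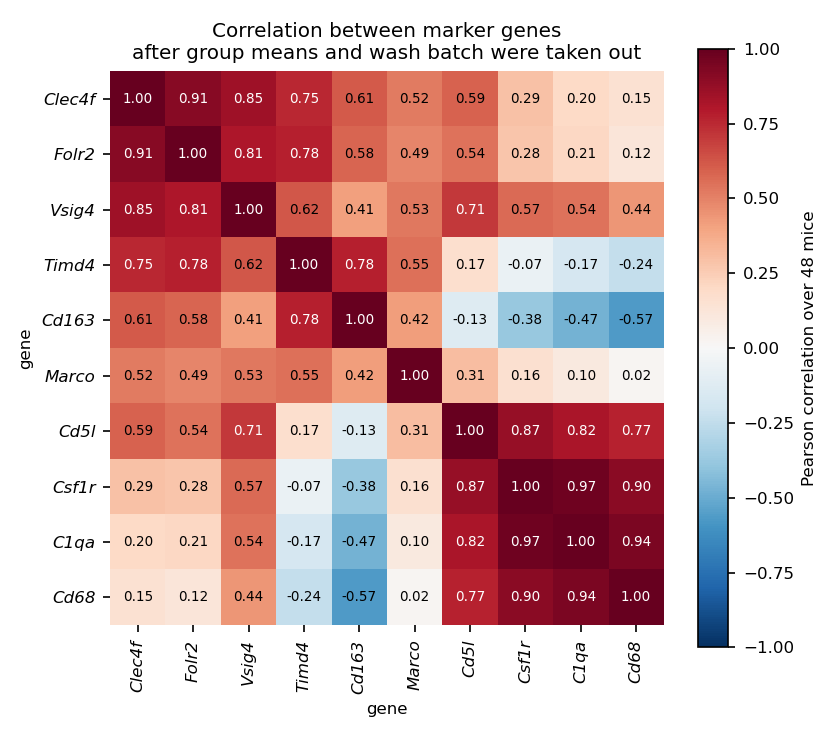
Pearson correlation between each pair of the 10 genes over 48 mice after group means and wash batch were taken out, each array counted alike whatever its weight in the fit. *Csf1r*, *C1qa*, *Cd68* and *Cd5l* form a block of 0.77 to 0.97, *Clec4f*, *Folr2*, *Vsig4* and *Timd4* one of 0.62 to 0.91, and *Cd163* with *Cd68* is at -0.57.

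Over the 48 mice with only the wash batch taken out, the genes most like the mean z score of the 10 members, among 21904 other genes, were *Cfp*, which encodes properdin, with r = 0.947, *Sdc3* with r = 0.909 and *Pira2* with r = 0.89. Among the same genes, other members left out, those most like *Clec4f* alone were *Cfp* with r = 0.835, *Kcnj16* with r = 0.794 and *Rims3* with r = 0.789, while the members *Folr2* and *Vsig4* stood at 0.88 and 0.87. These correlations span the 6 groups and thus include the differences between them, and they too count every array alike.

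Further lists of genes were read from the same fit. Those named are the called genes of largest change, and any other choice is marked. The counts of genes are to be read against all tested probes, of which the HFD called 12.2% higher and 12.6% lower in *Pparα-/-* mice, 9.46% and 10.8% in *Pparα hep-/-* mice, and 18.7% in either direction in *WT* mice. Of 14 further Kupffer cell genes 5 rose with the HFD in *Pparα-/-* mice, led by *Il18bp* (0.68), *Clec1b* (0.58) and *Hmox1* (0.57), and 0 fell. In *Pparα hep-/-* mice 0 rose and 2 fell, *Fcna* (-0.64) and *Ccl24* (-0.58), and in *WT* mice *Paqr9* rose (0.62) and *Id3* fell (-0.86). In the interaction tests 2 of the 14 had a more positive change in *Pparα-/-* than in *WT* mice, beside 6.93% of probes, and between *Pparα hep-/-* and *WT* mice 1 passed in each direction, beside 10.4% of probes in either. Against *WT* on the CTRL diet 7 of these 14 stood higher with the hepatocyte deletion, led by *Ccl24* (0.83) and *Clec1b* (0.74), and 1 lower, *Id3* (-1.13), the largest change of these, where 11.3% of probes were higher and 13.4% lower. In *Pparα-/-* mice 3 were higher, led by *Cd207* (1.72, adjusted p = 7.53e-05), and 2 lower, *Id3* (-1.19, adjusted p = 8.08e-05) and *Paqr9* (-1.15, adjusted p = 1.82e-05), where 15.6% and 18.7% of probes were, so the share of higher genes lay near that of all probes. On the scale of mean z scores, where each gene counts alike, the group medians of this list were -0.35 and -0.33 in *WT* mice, 0.12 and 0.11 in *Pparα hep-/-* mice and -0.09 and 0.40 in *Pparα-/-* mice on the CTRL diet and the HFD. Those of the 10 members were -0.64 and -0.45, 0.04 and 0.25, and -0.02 and 0.88, so *WT* mice were low and *Pparα-/-* HFD mice highest on both lists. The summed signal, which the brightest probes carry, had group medians of 33500 to 41800 for the further Kupffer cell genes, highest in *WT* HFD mice.

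Of 20 genes that macrophages share in general 19 rose with the HFD in *Pparα-/-* mice, 13 in *Pparα hep-/-* and 0 in *WT* mice, with median changes of 0.88, 0.55 and 0.07, beside 12.2%, 9.46% and at most 18.7% of all probes. By the interaction tests 5 of the 20 had a more positive change in *Pparα-/-* than in *WT* mice (18 at an unadjusted p under 0.05), against 6.93% of probes, and 0 differed in limma between *Pparα hep-/-* and *WT* mice (4 unadjusted), so most of these genes were not shown to respond differently. *Adgre1*, which encodes F4/80 and is named as the standard macrophage marker and not for its size, changed by 0.93, 0.65 and 0.09. Summed signals of this list ran from 72500 to 139000 in *Pparα-/-* HFD, 56000 to 118000 in *Pparα hep-/-* HFD and 21200 to 129000 in *WT* HFD mice, with CTRL groups from 39900 to 143000, 47400 to 202000 and 30700 to 121000. The group medians on the CTRL diet and the HFD were 56000 and 118000 in *Pparα-/-*, 55300 and 84100 in *Pparα hep-/-* and 35100 and 43300 in *WT* mice. Among 13 genes of monocytes and recruited macrophages 10, 9 and 0 rose, but in limma 0 of the 13 passed the interaction test of either mutant with *WT* (4 unadjusted in each). *Ccl2*, a chemokine that draws monocytes, rose by 2.38 in *Pparα-/-* and by 1.53 in *Pparα hep-/-* mice. Against *WT* on the CTRL diet 5 of the 13 stood higher and 1 lower in *Pparα-/-* mice, beside 15.6% and 18.7% of probes. In *Pparα hep-/-* mice 2 were higher, beside 11.3%. Between the mutants on the HFD 4 were higher and 1 lower in *Pparα-/-* mice, beside 15.2% and 15.4%. Sums of the monocyte list ran from 12100 to 20700 in *Pparα-/-* HFD and 10700 to 15500 in *Pparα hep-/-* HFD mice, beside 6280 to 19800 and 9310 to 27400 on the CTRL diet and 5420 to 22400 in *WT* mice. Their medians on the CTRL diet and the HFD were 8890 and 17900 in *Pparα-/-*, 11500 and 14000 in *Pparα hep-/-* and 7080 and 8760 in *WT* mice. Of 10 genes of lipid-associated macrophages 6 rose and 1 fell in each mutant. The largest change was the fall of *Fabp5* (-2.34 in *Pparα-/-* and -4.25 in *Pparα hep-/-* mice), and *Gpnmb* led those that rose (1.97 and 2.99). The interaction with *WT* passed for 3 of these 10 in *Pparα-/-* and for 5 in *Pparα hep-/-* mice, all with the more positive change in the mutant. Of all probes 6.93% had a more positive change in the former, and 10.4% passed in either direction in the latter. In *WT* mice 1 of them rose, *Atp6v0d2* (0.82), and 3 fell, *Fabp5* (-3.00), *Lpl* (-1.26) and *Cd9* (-0.95). The part of recruited cells in the changes of *Cd68*, *C1qa* and *Csf1r* was not tested.

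Of 10 genes for the ligands of CSF1R and the transcription factors of myeloid cells, 5 rose with the HFD in *Pparα-/-* mice, 1 in *Pparα hep-/-* (*Runx1*, 0.74) and 0 in *WT* mice. The 1 of 10 is near the 9.46% of all probes that rose in that genotype, beside 12.2% in *Pparα-/-* mice. The interaction of *Pparα-/-* with *WT* passed for 2 of the 10, both with the more positive change in *Pparα-/-* mice, as for 6.93% of all probes. *Runx1* rose by 0.67, *Irf8* by 0.56 and *Csf1* by 0.54 in *Pparα-/-* mice, and *Il34*, named as the other ligand and not for its size, by 0.35. Compared with *WT* on the HFD, *Irf8* was higher by 1.06, *Csf1* by 1.02 and *Runx1* by 0.99 in *Pparα-/-* mice, and *Runx1* by 0.80, *Irf8* by 0.65 and *Il34* by 0.59 in *Pparα hep-/-* mice. The other value of each ligand, given for its role and not for its size, was 0.42 for *Csf1* in *Pparα hep-/-* and 0.92 for *Il34* in *Pparα-/-* mice.

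Markers of other liver cells were read in the same comparisons. In *Pparα-/-* mice the HFD raised 8 of 10 stellate cell genes, 3 of 10 neutrophil genes and 2 of 10 sinusoidal endothelial genes, while of 10 hepatocyte genes 1 rose and 2 fell and of 6 cholangiocyte genes 0 passed. Stellate cell genes had a summed signal of 25300 to 48100 in *Pparα-/-* CTRL and 45700 to 56200 in *Pparα-/-* HFD mice, against 20300 to 37800 in *WT* CTRL and 15000 to 48600 in *WT* HFD mice. In *Pparα hep-/-* mice 1 stellate, 2 neutrophil and 2 sinusoidal endothelial genes rose, and in *WT* mice 0 of each, while 2 hepatocyte genes fell in both genotypes and 1 rose in *WT* mice. Of the 6 cholangiocyte genes 1 rose in *Pparα hep-/-* mice, *Sox9* (0.54), and 0 passed in *WT* mice. Over all probes 12.2% rose in *Pparα-/-* and 9.46% in *Pparα hep-/-* mice, so the 1 stellate gene of the latter is near the background, and the interaction of *Pparα-/-* with *WT* passed for 2 of 10 stellate genes and, in limma, for 0 of the neutrophil (3 unadjusted) and endothelial genes (0 unadjusted). That interaction called 14.3% of all probes, 6.93% with the more positive change in *Pparα-/-* mice. Of 10 T, B and NK cell genes tested and of 5 red blood cell genes 0 rose with the HFD in any genotype, while *Cd3e* (-0.26) and *Alas2* (-0.54) fell in *Pparα-/-* mice and *Cd4* (-0.45) in *Pparα hep-/-* mice. In *Pparα-/-* against *WT* mice on the HFD, where 9 of the 10 markers passed, 10 of 10 stellate, 7 of 10 neutrophil, 6 of 10 sinusoidal endothelial and 4 of 10 T, B and NK cell genes were higher, as were 20 of 20 general macrophage genes, while 1 neutrophil and 2 endothelial genes were lower, against 21.8% of all probes higher and 24% lower. In *Pparα hep-/-* against *WT* mice on the HFD the higher genes numbered 7, 1, 3 and 1 of 10 and 18 of 20, in the same order, and 1 T, B and NK cell gene was lower, against 13.3% higher and 13.4% lower, so the neutrophil and the T, B and NK cell counts were below the share of all probes. In the same order, *Pparα-/-* against *WT* mice on the CTRL diet gave 3, 0, 3 and 3 of 10 and 9 of 20 higher, beside 15.6% of probes. Lower were 1 neutrophil, 2 endothelial and 1 T, B and NK cell gene, beside 18.7%. *Pparα hep-/-* against *WT* mice gave 2, 1, 2, 1 and 4 higher and 1 neutrophil gene lower, beside 11.3% and 13.4%. Between the mutants on the HFD 4, 4, 3, 4 and 6 were higher in *Pparα-/-* mice and 1 neutrophil and 2 endothelial genes lower, beside 15.2% and 15.4%. The part of these other cells in the changes of the 10 markers was not tested.

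**Figure D4:**
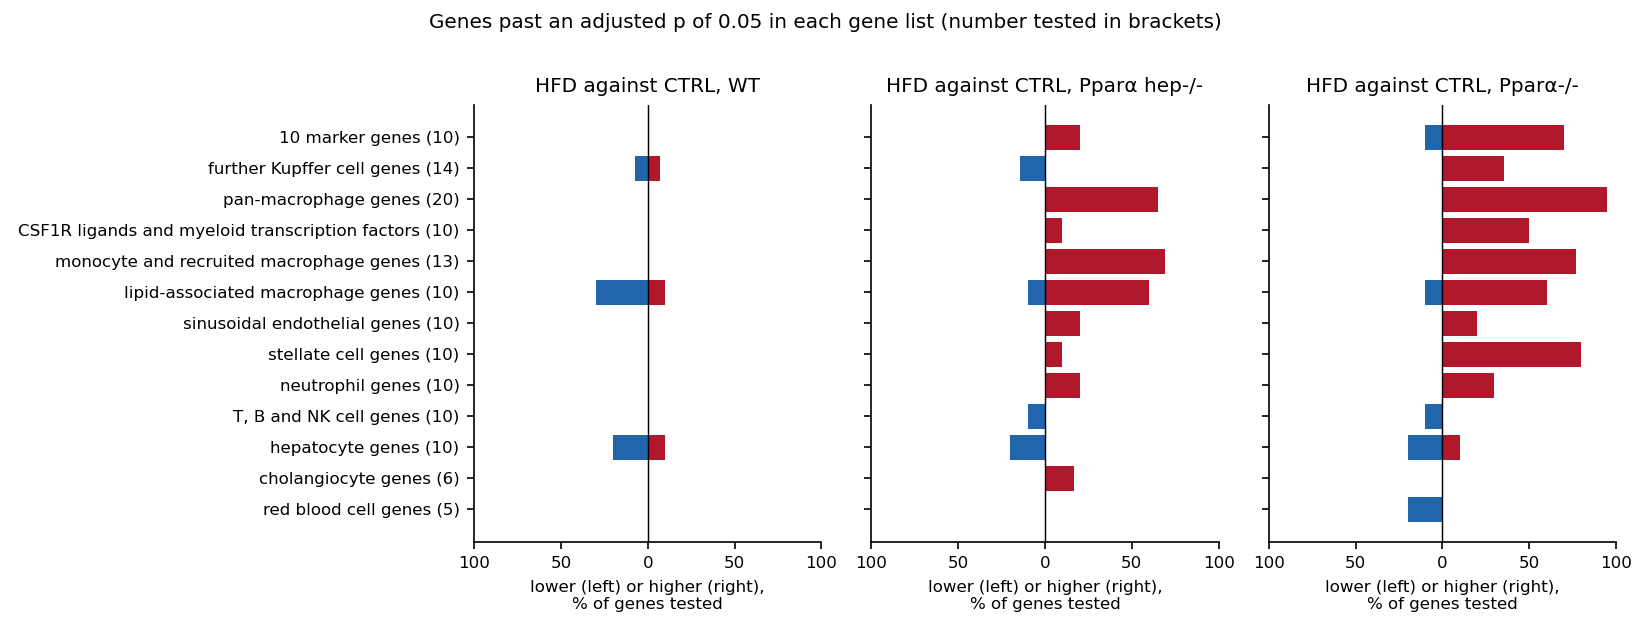
Share of genes in each list (percent of those tested, number in brackets) that passed an adjusted p of 0.05 for the HFD against the CTRL diet, higher to the right in red and lower to the left in blue, for each genotype. In *Pparα-/-* mice 19 of 20 pan-macrophage genes and 7 of the 10 markers rose, and in *WT* mice 0 of either.

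Promoter windows were searched because several markers moved together. RefSeq windows on GRCm38.p6, from the 250 bases before the start, were matched by symbol for *Clec4f*, *Timd4*, *Cd5l*, *Marco*, *Vsig4*, *Folr2*, *Cd163* and *Cd68*. GAGGAA, a core bound by PU.1 and other ETS factors, was counted on both strands, and 23.3% of 32851 windows hold it. It occurred 2 times for *Vsig4* and 1 time each for *Marco*, *Cd5l* and *Cd68*. TGCTGA, a part of the sites of MAF factors, which 16.1% of windows hold on either strand, occurred 2 times each for *Timd4* and *Cd5l* and 1 time for *Clec4f* and for each of 2 starts of *Folr2*. The PPAR direct repeat was found in 0 of these windows and in 0.0335% of all. The windows of the gene whose diet groups parted in *Pparα-/-* mice, *Vsig4* at chrX:96293439-96293688 on the minus strand, and of the gene that set *Pparα-/-* mice apart, *Timd4* at chr11:46810549-46810798 on the plus strand, are shown, with GAGGAA in capitals in the former and TGCTGA, here on the opposite strand, in capitals in the latter. A match to these letters is a description of the window and not a site.
Vsig4: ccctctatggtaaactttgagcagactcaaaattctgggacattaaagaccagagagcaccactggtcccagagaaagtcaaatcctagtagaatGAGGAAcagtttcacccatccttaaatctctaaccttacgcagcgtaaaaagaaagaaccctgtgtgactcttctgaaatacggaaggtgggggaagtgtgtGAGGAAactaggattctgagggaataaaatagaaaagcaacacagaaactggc
Timd4: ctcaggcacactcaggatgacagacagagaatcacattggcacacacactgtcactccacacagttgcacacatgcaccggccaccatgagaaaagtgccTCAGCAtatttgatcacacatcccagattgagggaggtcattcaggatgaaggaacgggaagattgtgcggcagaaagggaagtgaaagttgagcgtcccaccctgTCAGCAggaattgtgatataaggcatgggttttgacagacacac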

How the data were processed

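Liver RNA of 48 mice, 8 for each of 6 groups, was read on 1-colour Agilent arrays in 2 wash batches. Per the file headers, spot intensities were extracted with Agilent Feature Extraction 10.10.1.1 and deposited without normalization between arrays. The authors also deposited a table of log2 values that had been filtered, corrected for wash bath and quantile normalized, used here as an alternative.

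Outlier spots were left out (195 missing values), probes were kept when 4 or more of the 8 arrays of a group marked them well above background, and log2 median intensities were quantile normalized. limma 3.58.1 in R 4.3.3 fitted 6 group means, a wash batch term and array weights, with Benjamini-Hochberg adjustment over 33323 probes per contrast and a threshold of 0.05. For a gene with several probes the brightest is the main one. The fit was checked on simulated data. Groups and replicate numbers came from the labels. The main fit does not treat the numbers as a pairing.

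Members and gene lists were chosen with earlier results of these data known. All members were named, and of other genes up to 3 per list and direction with the largest called change. Alternatives were other signals, normalization, filters, batch terms, weights and left-out arrays. Promoters came from RefSeq, GRCm38.p6.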

Additional observations from a re-analysis of the deposited data

Results flagged for a closer look

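Of 60 sets of 8 mice, 1 for each gene and group, 11 held a mouse set apart from the rest of its group, where chance flags about 1 in 20 of independent sets. The 10 genes were read on the same arrays, so these sets are not independent and the share is no test. *Pparα hep-/-* CTRL mouse 1 was the mouse set apart for 8 genes. It was lowest for *Clec4f* (11.47, the next mouse at 12.6), *Timd4* (5.79, next 7.18), *Marco* (10.46, next 11.23), *Folr2* (8.3, next 9.54) and *Cd163* (5.29, next 8.48). It was highest for *Csf1r* (14.01, next 13.18), *Cd68* (12.22, next 11.37) and *C1qa* (12.26, next 11.07). Its array had the lowest weight of all, 0.189. *Cd163* was also lowest by a wide gap in *Pparα hep-/-* HFD mouse 8 (6.13, next 8.09) and *Pparα-/-* CTRL mouse 2 (6.6, next 8.81). *Folr2* was highest in *WT* CTRL mouse 4 (9.73, next 9.02).

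In the interaction tests 1 of the 10 genes passed in each of 2 contrasts, in which 14.3% and 3.42% of all probes did. The response of *Cd68* was 1.06 larger on the log2 scale in *Pparα-/-* than in *WT* mice (limma adjusted p = 0.0285), and that of *Folr2* was 0.91 larger in *Pparα-/-* than in *Pparα hep-/-* mice (limma adjusted p = 0.0312). Neither passed without array weights (limma adjusted p = 0.153 and 0.419), without a filter (0.101 for each) or within either wash batch (0.161 and 0.392 for *Cd68*, 0.662 and 0.231 for *Folr2*).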

How the results depend on the processing

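Of 38 changes of members that passed, 0 changed sign when 1 array was left out and 10 lost their call. The counts of called members then ran from 0 to 0 (diet, *WT*), 0 to 3 (diet, *Pparα hep-/-*), 7 to 8 (diet, *Pparα-/-*), 2 to 6, 3 to 5 and 0 to 1 (CTRL diet: *Pparα hep-/-* over *WT*, *Pparα-/-* over *WT*, *Pparα-/-* over *Pparα hep-/-*), 5 to 6, 9 to 9 and 2 to 7 (HFD, same order), and 0 to 0, 0 to 3 and 0 to 3 for the interactions of *Pparα hep-/-* with *WT*, *Pparα-/-* with *WT* and *Pparα-/-* with *Pparα hep-/-*. *Pparα-/-* over *WT* on the HFD held 9 calls in every setting but wash batch 1 alone (8).

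The diet count in *Pparα hep-/-* mice (2) became 0 without array weights, without a filter, without the wash batch term and within either wash batch, and 1 with the authors' log2 values. That in *Pparα-/-* mice (8) became 4 without weights, 2 within wash batch 1 and 3 within wash batch 2. On the CTRL diet, *Pparα hep-/-* over *WT* (4) became 2 without weights, 0 and 2 within batches 1 and 2, and went up to 6 with the authors' values and without the wash batch term and to 5 with the processed signal. *Pparα-/-* over *WT* (3) became 1 within batch 1. *Pparα-/-* over *Pparα hep-/-* (0) became 1 without weights, with normexp, the authors' values, the stricter filter, the slide block and within batch 2. The gene was *Timd4* in each of these except batch 2, where it was *Marco*. On the HFD, *Pparα hep-/-* over *WT* (6) became 2 without weights and 0 within batch 1, and *Pparα-/-* over *Pparα hep-/-* (4) became 2 without weights, without a filter and within batch 2. The interaction of *Pparα-/-* with *WT* (1) became 0 without weights, without a filter and within either batch, 2 with normexp, the stricter filter and the slide block, and 5 without the 5 arrays of weight under 0.5, a setting chosen after seeing the data. That of *Pparα-/-* with *Pparα hep-/-* (1) became 0 without weights, filter or wash batch term, with the slide block and within either batch. Each wash batch alone holds 3 to 5 mice per group. Calls over all probes moved as well. Without weights, within batch 1 and within batch 2 they went from 20.2% to 3.81%, 3.12% and 5.24% for the diet in *Pparα hep-/-* mice, from 24.8% to 12.1%, 6.18% and 8.46% for that in *Pparα-/-* mice, and from 14.3% to 5.22%, 1.1% and 0.993% for the interaction of *Pparα-/-* with *WT*. The cause of these shifts was not tested.

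With the replicate block the diet count in *Pparα hep-/-* mice was 1 and the *Pparα-/-* with *Pparα hep-/-* interaction count 0, *Pparα hep-/-* over *WT* on the CTRL diet gave 3, and the other counts did not move. Same-numbered mice correlated at 0.014 on average (-0.449 to 0.694, 35 of 120 pairs over 0.1). Among arrays of other groups, 11 of 48 arrays were closest to one of their own number. No chance value was worked out for these counts, so they do not decide whether the number pairs mice. The main fit did not treat it as a pairing.

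The dim *Csf1r* probe had the opposite sign: -0.32 for the diet in *Pparα-/-* mice, -0.21, -0.39 and -0.18 on the HFD for *Pparα hep-/-* over *WT*, *Pparα-/-* over *WT* and *Pparα-/-* over *Pparα hep-/-*, and -0.40 for the interaction of *Pparα-/-* with *WT*. Of these -0.21 (limma adjusted p = 0.076) and -0.18 (limma adjusted p = 0.0897) did not pass, and *Pparα-/-* over *WT* on the CTRL diet, called at 0.78, was 0.009 on this probe (limma adjusted p = 0.958). Precision is limited by 8 mice per group, and low signals by the local background.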
